A study of Homo sapiens with 12 samples.

Results

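RNA levels of 10 genes for extracellular matrix proteins and matrix-binding proteins were followed across the 4 groups of this study. The genes are a named set, taken by symbol and chosen with earlier results of these data known: FN1, VCAN, THBS1 and TGFBI (matrix proteins), CD44 (a matrix receptor), LGALS1 and LGALS3 (galectins), and MMP9, TIMP1 and TIMP2 (a matrix protease and protease inhibitors). All 10 were found among the 78930 genes read, and all 10 were among the 24064 genes that passed the filter on low counts. The cells were OCI-AML3, a human acute myeloid leukaemia line with the cytoplasmic mutant of nucleophosmin (NPM1c), here in a degron form: dTAG-13 directs the tagged mutant protein to degradation, and the cells of all 4 groups carry this degron. Of the 4 groups, 3 received lentivirus carrying full-length NPM1c with mCherry (FL-NPM1c), a construct named C-body null with mCherry (C-body null) or mCherry alone (mCherry). The cells of these 3 groups were given 500 nM dTAG-13 at 48 hours from transduction and were sorted for mCherry after another 24 hours. NTC DMSO, the remaining group, is named for the solvent, and its labels carry the same protocol of transduction, treatment and sort on the same schedule, with DMSO as the other choice to dTAG-13. They name no construct for it, and its treatment label reads dTAG, against its title. A comparison with NTC DMSO may therefore carry effects of the vector as well as of dTAG-13, and these cannot be told apart. Each group had 3 libraries. The protocol names OCI-AML3 for all of them, while the cell line label carries a different running number in each library. Whether the libraries were separate cultures is not in the labels, and the spread behind each p-value may be technical.

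Fibronectin, thrombospondin 1 and TGFBI are secreted proteins that cells bind through integrins and related receptors, and versican is a large chondroitin sulfate proteoglycan that binds hyaluronan. CD44 is the main hyaluronan receptor of blood cells. Galectins bind beta-galactoside sugars on cell surface and matrix glycoproteins. MMP9, or gelatinase B, cleaves denatured collagen and other matrix proteins, and TIMP1 and TIMP2 inhibit MMP9 and other metalloproteases. Monocytes are known to express versican, fibronectin, thrombospondin 1, TGFBI, MMP9 and both galectins, several of them more strongly as they differentiate.

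Gene counts per library ran from 30.5 M to 59.9 M (median 41.0 M). Levels are given as CPM, counts per 1 M counts, scaled by effective library total. Mitochondrial transcripts took 7.32% to 9.63% of counts in mCherry libraries and 6.83% to 7.63% in the other 9 libraries, and mCherry replicate 2 and NTC DMSO replicate 3 lay apart from their groups on a principal component with 9.89% of the variance. NPM1 itself was at 1651 ± 38.9 CPM with FL-NPM1c, 1922 ± 21.7 with C-body null, 1252 ± 171 with mCherry and 1430 ± 117 in NTC DMSO (SD, n = 3 each), and its RNA does not measure degradation of the protein. The 10 monocyte markers together reached 2897 to 3091 CPM with FL-NPM1c, 4468 to 4605 with C-body null, 3269 to 3692 with mCherry and 499.5 to 533 in NTC DMSO, most of it LYZ. Of the 8 myeloid blast markers 7 passed the filter. The 8 together reached 568 to 642 CPM with FL-NPM1c, 617 to 696 with C-body null, 541 to 655 with mCherry and 388 to 431 in NTC DMSO. Markers of fibroblasts, endothelial and epithelial cells were at or near 0, since 7 of 8, 6 of 6 and 5 of 5 of them stayed below 1 CPM in every library. Of 6 megakaryocyte and platelet markers 3 stayed below 1 CPM in every library. These 6 together reached 5.365 to 6.34 CPM with FL-NPM1c, 4.03 to 5.83 with C-body null, 4.61 to 5.61 with mCherry and 3.97 to 4.52 in NTC DMSO.

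The promoters of FN1, THBS1 and TGFBI are shown because these 3 genes for adhesive proteins all rose with mCherry over NTC DMSO. Each stretch lies within the 250 bases before the RefSeq start (GRCh38.p14), is cut where annotated exons begin, and reads 5′ to 3′ on the gene's strand, with motif matches in capitals. They are FN1 at chr2:215436173-215436318 (minus strand), THBS1 at chr15:39580829-39581078 (plus strand) and TGFBI at chr5:136028738-136028894 (plus strand).
FN1: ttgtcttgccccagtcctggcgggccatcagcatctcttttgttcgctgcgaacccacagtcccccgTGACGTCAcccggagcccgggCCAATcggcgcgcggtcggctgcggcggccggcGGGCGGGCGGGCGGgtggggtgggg
THBS1: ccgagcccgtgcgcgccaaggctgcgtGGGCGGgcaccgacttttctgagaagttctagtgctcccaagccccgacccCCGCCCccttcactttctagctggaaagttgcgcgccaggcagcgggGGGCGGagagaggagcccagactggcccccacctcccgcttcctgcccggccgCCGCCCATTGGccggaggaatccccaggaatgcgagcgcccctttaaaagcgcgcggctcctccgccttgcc
TGFBI: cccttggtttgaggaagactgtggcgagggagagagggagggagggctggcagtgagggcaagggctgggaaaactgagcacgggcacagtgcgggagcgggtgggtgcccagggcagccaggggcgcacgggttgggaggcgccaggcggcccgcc
RefSeq promoters were matched for 7 of the 10 genes (FN1, VCAN, THBS1, TGFBI, CD44, LGALS3 and TIMP1). On either strand of the 250 bases before the start, the GC box (GGGCGG) was found in 7 of 7, against 42.6% of 35116 human promoters, and in FN1 some copies overlap each other. In VCAN, TGFBI, CD44 and LGALS3 no copy lay wholly within the part before annotated exons, so the TGFBI stretch above shows none. The CCAAT box (CCAAT) was found in FN1 and THBS1, against 32.0% of promoters, and the CREB motif (TGACGTCA) in FN1 at 183 bases before the start, against 1.65% of promoters. The TATA box (TATAAA, 10.7% of promoters), AP-1 (TGANTCA, 6.57%), PU.1 (GAGGAAGT, 2.17%), C/EBP (TTGCNNAA, 9.05%) and MEIS (TGACAG, 13.0%) motifs had no match in the 7. A match says only that these letters are in the window.

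Most of these genes had higher RNA in mCherry cells given dTAG-13 than in NTC DMSO cells, the comparison that addresses loss of degron-tagged NPM1c. Of the 10 genes 7 were called higher (edgeR quasi-likelihood test, adjusted p under 0.05 over all genes tested) and 0 lower, where 22.6% of all genes tested were called (12.9% higher and 9.69% lower). Of these, FN1, VCAN, MMP9, TGFBI, THBS1 and LGALS3 rose at least 2-fold and TIMP1 rose by less, while CD44, LGALS1 and TIMP2 were not called. The median log2 fold change of the 10 genes was 1.43, beside -0.00 over all genes tested. Ordered from the largest log2 fold change of 24064 genes, FN1 stood at 133, VCAN at 178, MMP9 at 185 and TGFBI at 291. In these bulk libraries more cells with a transcript and more of it per cell cannot be told apart. The summed monocyte markers and the summed blast markers given above were also higher in every mCherry library than in every NTC DMSO library. Their part in these results was not tested.

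With FL-NPM1c added back, FN1 and THBS1 were higher and LGALS3 lower than with mCherry, and the other 7 genes were not called. The 3 called of 10 stand beside 15.5% of all genes (7.58% higher and 7.95% lower). The summed monocyte markers were lower in every FL-NPM1c library than in every mCherry library, and their part was not tested. With C-body null 0 of 10 were called against mCherry, where 0.594% of all genes were called in either direction. At an unadjusted p under 0.05 (edgeR) there were 2, TGFBI and TIMP2, beside 2871 of the 24064 genes tested. DESeq2 called 1, TGFBI, beside 362 of 24064. FL-NPM1c against C-body null, the direct test between constructs, called 1 of the 10 genes, FN1, which was higher, where 9.68% of all genes were called (4.82% higher and 4.86% lower). With FL-NPM1c against NTC DMSO 7 of 10 were higher and 0 lower, where 27.9% of all genes were called (14.6% higher and 13.3% lower). With C-body null against NTC DMSO 7 were higher and 1 lower, TIMP2, where 26.6% were called (14.1% higher and 12.4% lower). The 7 were those called higher with mCherry. Over NTC DMSO, the log2 fold change of FN1 was 3.45 ± 0.10 for FL-NPM1c and 3.03 ± 0.10 for C-body null, and that of VCAN 2.64 ± 0.11 and 2.84 ± 0.11 for the same groups. MMP9 rose by 2.71 ± 0.29 for FL-NPM1c and 3.17 ± 0.29 for C-body null, and TGFBI by 2.67 ± 0.20 and 3.00 ± 0.20. THBS1 rose by 2.36 ± 0.22 for FL-NPM1c and 1.86 ± 0.23 for C-body null, and LGALS3 by 0.81 ± 0.14 and 1.22 ± 0.14. By group mean, FN1 and THBS1 were highest with FL-NPM1c, and MMP9 and TGFBI with C-body null. The comparisons with mCherry share its libraries, and those with NTC DMSO share theirs.

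**Figure D1:**
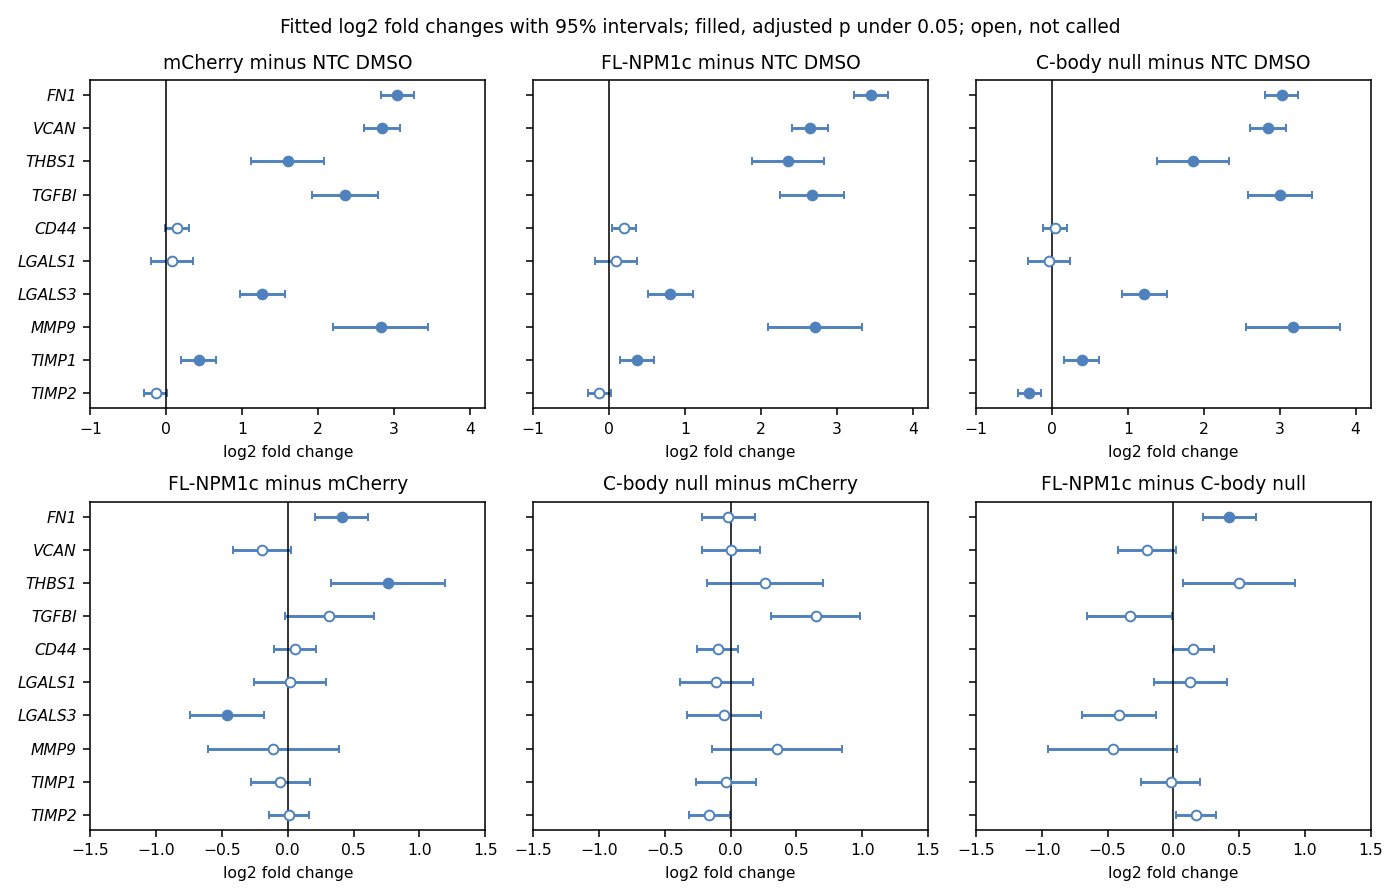
Fitted log2 fold changes (horizontal axis) of the 10 genes (vertical axis) with 95% intervals in the 6 comparisons; filled points passed the edgeR test and open points did not. In the upper row, against NTC DMSO, FN1, VCAN, MMP9 and TGFBI lie between 2.36 and 3.45; in the lower row, between groups that all received dTAG-13, every point lies between -0.46 and 0.76.

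FN1 encodes fibronectin (ENSG00000115414, chromosome 2, 215360440 to 215436172, minus strand, GRCh38). Its level was 717, 628 and 709.7 CPM for FL-NPM1c, 523, 553 and 454 for C-body null, 449, 540.2 and 559 for mCherry, and 59.2, 62.4 and 66.4 in NTC DMSO. All 9 libraries with dTAG-13 lay far above NTC DMSO, and the FL-NPM1c libraries lay above all others, while C-body null and mCherry overlapped. The rise with mCherry over NTC DMSO was 3.04 ± 0.10 (SE) on the log2 scale, or 8.24-fold (edgeR adjusted p = 6.56e-12). FL-NPM1c was a further 0.41 ± 0.09 above mCherry (adjusted p = 0.00943) and 0.43 ± 0.09 above C-body null (adjusted p = 0.00772). The first of these calls ended without FL-NPM1c replicate 1 (0.34, adjusted p = 0.0724) or mCherry replicate 1 (0.29, adjusted p = 0.0832), and the second without FL-NPM1c replicate 1 (0.37, adjusted p = 0.0631) or C-body null replicate 3 (0.32, adjusted p = 0.0631). C-body null minus mCherry was -0.02, with a 95% interval of -0.22 to 0.18. The markers of fibroblasts, which also make fibronectin, summed to 1.31 to 2.07 CPM with FL-NPM1c, 0.620 to 0.987 with C-body null, 0.635 to 0.857 with mCherry and 0.951 to 1.17 in NTC DMSO. Of the 8, COL3A1 and POSTN were at 0 everywhere, and the highest, COL1A2, averaged 1.36 CPM with FL-NPM1c, 0.207 with C-body null, 0.0784 with mCherry and 0.540 in NTC DMSO.

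THBS1 encodes thrombospondin 1 (ENSG00000137801, chromosome 15, 39581079 to 39599466, plus strand), which binds CD36, CD47 and integrins and can activate latent transforming growth factor beta. Its level was 30.1, 15.2 and 14.6 CPM for FL-NPM1c, 13.1, 14.6 and 14.5 for C-body null, 13.2, 10.7 and 11.4 for mCherry, and 3.99, 3.50 and 4.15 in NTC DMSO. One library, FL-NPM1c replicate 1, stood at about the sum of the other FL-NPM1c libraries, and those lay just above the highest mCherry library. THBS1 rose with mCherry over NTC DMSO by 1.60 ± 0.23 on the log2 scale (edgeR adjusted p = 7.03e-05). FL-NPM1c was 0.76 ± 0.20 above mCherry (adjusted p = 0.021), but 0.30 (adjusted p = 0.14) without FL-NPM1c replicate 1 and 0.74 (adjusted p = 0.0869) without mCherry replicate 3. FL-NPM1c minus C-body null was 0.50 ± 0.20 (adjusted p = 0.137). It came to 0.05 without FL-NPM1c replicate 1, which did not pass, and passed at 0.68 (adjusted p = 0.0442) without FL-NPM1c replicate 3 and at 0.49 (adjusted p = 0.00117) with no low-count filter. FSIP1, on the opposite strand with 448 shared exon bases, was likewise highest in FL-NPM1c replicate 1, at 3.4 CPM, against 1.35 and 1.38 CPM in the other FL-NPM1c libraries. Its counts were 9.89% of those of THBS1 with FL-NPM1c, 10.6% with C-body null, 10.2% with mCherry and 16.1% in NTC DMSO as group means. AC037198.2, also on the opposite strand, held 4.12% to 6.33%. The strand setting of the counting is not given in the sources used here, so reads of such pairs may not have been told apart.

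TGFBI, a secreted integrin-binding protein induced by transforming growth factor beta (ENSG00000120708, chromosome 5, 136028895 to 136063818, plus strand), was the least abundant gene per exon length. Its level was 3.90, 3.57 and 3.28 CPM for FL-NPM1c, 3.77, 4.55 and 5.17 for C-body null, 3.01, 2.89 and 2.71 for mCherry, and 0.496, 0.425 and 0.766 in NTC DMSO, where it had 17 to 29 counts a library. Both construct groups lay wholly above mCherry, and all 9 libraries lay above NTC DMSO. TGFBI rose with mCherry over NTC DMSO by 2.36 ± 0.21 on the log2 scale (edgeR adjusted p = 3.4e-07). C-body null was 0.65 ± 0.16 above mCherry with a 95% interval of 0.31 to 0.99, and did not pass (adjusted p = 0.0994). It passed with DESeq2 (adjusted p = 0.0148), with no low-count filter (adjusted p = 0.0221) and without mCherry replicate 2 (adjusted p = 0.0467). FL-NPM1c minus mCherry was 0.31 ± 0.16 (adjusted p = 0.191).

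**Figure D2:**
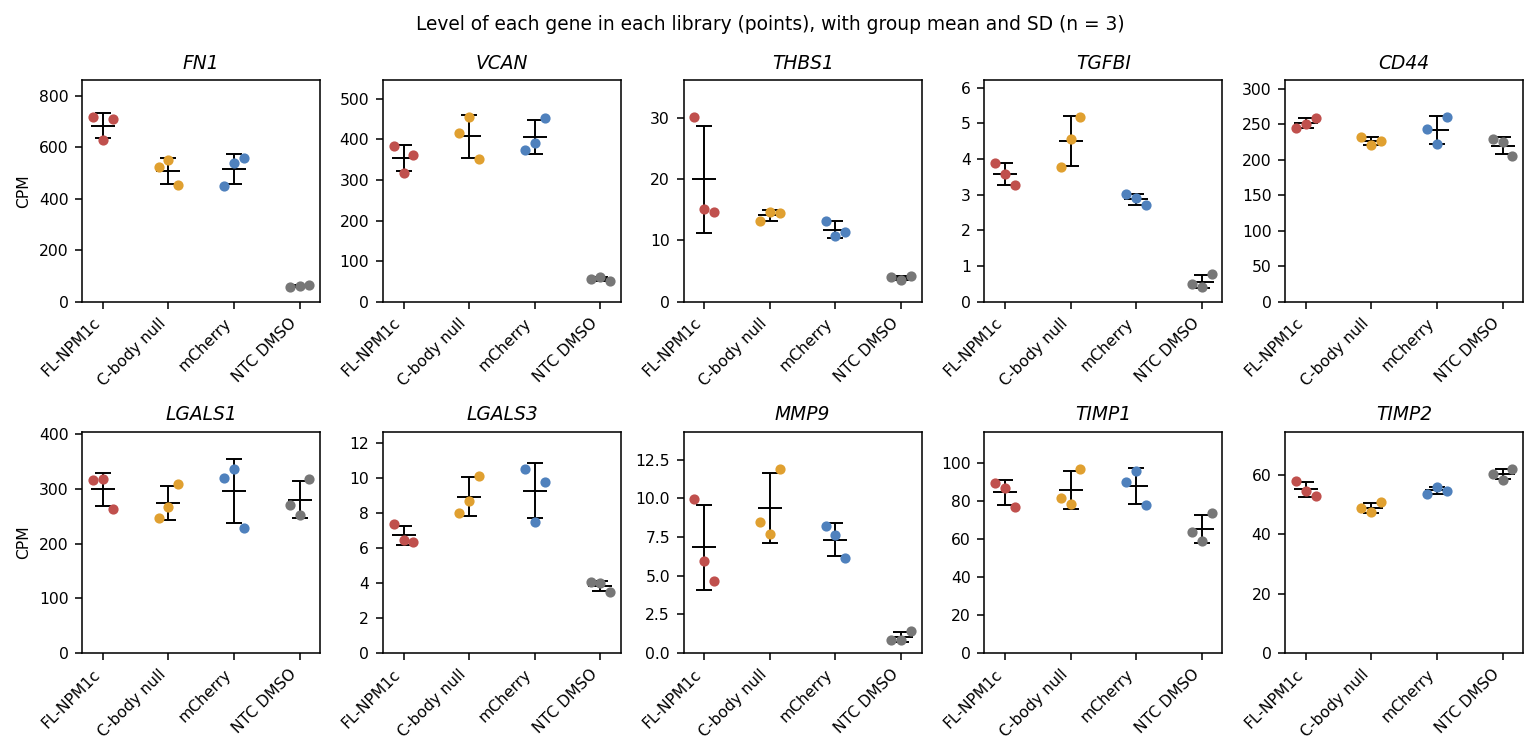
Level in CPM (vertical axes from 0, each with its own scale) of each gene in each library (points), with the mean and SD of each group (n = 3). The FN1 points with FL-NPM1c (628 to 717 CPM) lie above all other groups, THBS1 in FL-NPM1c replicate 1 stands alone at 30.1 CPM, and the LGALS1 groups overlap.

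VCAN encodes versican (ENSG00000038427, chromosome 5, 83471465 to 83582303, plus strand). It was at 383, 319 and 362 CPM for FL-NPM1c, 416, 455 and 352 for C-body null, 373, 392 and 453 for mCherry, and 56.1, 62.3 and 52.1 in NTC DMSO. The 9 libraries with dTAG-13 lay well above NTC DMSO and overlapped each other. The rise with mCherry over NTC DMSO was 2.84 ± 0.11 on the log2 scale (7.15-fold, edgeR adjusted p = 4.36e-11). VCAN was not called between FL-NPM1c and mCherry (-0.20, 95% interval -0.42 to 0.02, adjusted p = 0.209). For C-body null minus mCherry the value was 0.00, with an interval of -0.22 to 0.23. The opposite-strand gene VCAN-AS1 shares 453 exon bases with VCAN. It had 11.6% of the counts of VCAN with FL-NPM1c, 10.6% with C-body null, 11.2% with mCherry and 10.7% in NTC DMSO, and was 2.91 ± 0.13 higher with mCherry than in NTC DMSO. The limit on strand holds for this pair too.

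CD44, the receptor for hyaluronan (ENSG00000026508, chromosome 11, 35138870 to 35232402, plus strand), was abundant in all groups. Its level was 245, 249.7 and 259 CPM for FL-NPM1c, 232, 220.2 and 226 for C-body null, 244, 222 and 259.8 for mCherry, and 229, 225 and 206 in NTC DMSO. The mCherry libraries overlapped those of each other group. mCherry minus NTC DMSO was 0.14 ± 0.07 on the log2 scale (95% interval -0.02 to 0.29, edgeR adjusted p = 0.206), a value that passed without mCherry replicate 2 (0.19, adjusted p = 0.0492). FL-NPM1c lay above both C-body null (0.15 ± 0.07, adjusted p = 0.216) and NTC DMSO (0.19 ± 0.07, adjusted p = 0.0632) in every library without passing. FL-NPM1c against NTC DMSO passed with scaling by library totals (adjusted p = 0.0216) and with the stricter count filter (adjusted p = 0.0335). FL-NPM1c against C-body null passed when only those 2 groups were fitted (adjusted p = 0.0425). CD44-AS1, on the opposite strand with 84 shared exon bases, held 11.0% to 12.4% of the counts of CD44 as group means.

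Of the galectins, LGALS3 rose with mCherry over NTC DMSO and LGALS1 was not called. LGALS1 (ENSG00000100097, chromosome 22, 37675608 to 37679806, plus strand), which encodes the dimeric galectin 1, was at 316, 318 and 264 CPM for FL-NPM1c, 247, 267 and 308 for C-body null, 321, 337 and 229 for mCherry, and 271, 253 and 318 in NTC DMSO. All groups overlapped, and the spread within mCherry was wider than any difference between group means. mCherry minus NTC DMSO was 0.07 ± 0.13 on the log2 scale (95% interval -0.20 to 0.35, edgeR adjusted p = 0.737).

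LGALS3 (ENSG00000131981, chromosome 14, 55124110 to 55145413, plus strand) encodes galectin 3, which forms oligomers and is known as a product of macrophages. It was at 7.36, 6.48 and 6.32 CPM for FL-NPM1c, 7.97, 8.68 and 10.1 for C-body null, 10.5, 7.51 and 9.79 for mCherry, and 4.04, 3.98 and 3.49 in NTC DMSO. FL-NPM1c lay between NTC DMSO and the other groups without overlap. The rise with mCherry over NTC DMSO was 1.27 ± 0.14 on the log2 scale (edgeR adjusted p = 5.48e-06). FL-NPM1c minus mCherry was -0.46 ± 0.13 (adjusted p = 0.0292), and FL-NPM1c was 0.81 ± 0.14 above NTC DMSO (adjusted p = 0.000582). The call against mCherry ended without FL-NPM1c replicate 2 or 3 (adjusted p = 0.103 and 0.0891), without mCherry replicate 1 or 3 (0.105 and 0.0926) and in a fit of these 2 groups only (0.0597), with values of -0.39 to -0.46. FL-NPM1c minus C-body null was -0.41 ± 0.13 and missed the threshold (adjusted p = 0.0622), but passed with DESeq2 (adjusted p = 0.0368), no low-count filter (0.0369) and only the 2 groups (0.0207).

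MMP9 (ENSG00000100985, chromosome 20, 46008908 to 46016561, plus strand) was at 9.93, 5.92 and 4.66 CPM for FL-NPM1c, 8.44, 7.72 and 11.9 for C-body null, 8.18, 7.66 and 6.11 for mCherry, and 0.868, 0.825 and 1.43 in NTC DMSO, where it had 33 to 54 counts a library. The 3 groups with dTAG-13 overlapped, with FL-NPM1c spread widest, and all lay above NTC DMSO. With mCherry it rose over NTC DMSO by 2.82 ± 0.29 on the log2 scale (7.08-fold, edgeR adjusted p = 2.53e-06). C-body null minus mCherry was 0.35, with an interval of -0.15 to 0.85. FL-NPM1c minus C-body null was -0.46 ± 0.23 (adjusted p = 0.234), but passed at -0.86 (adjusted p = 0.0174) without FL-NPM1c replicate 1 and at -0.47 (adjusted p = 0.0163) with no low-count filter. SLC12A5-AS1, which shares 430 exon bases on the opposite strand, held 37.4%, 30.7% and 34.7% of the counts of MMP9 with FL-NPM1c, C-body null and mCherry, against 82.8% in NTC DMSO. SLC12A5-AS1 was itself 1.57 ± 0.22 higher with mCherry than in NTC DMSO. If strand was not used, the pair may share reads. The low NTC DMSO level of MMP9 and the size of its rise over NTC DMSO are then uncertain.

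TIMP1 (ENSG00000102265, chromosome X, 47582313 to 47586789, plus strand) was at 89.6, 87.0 and 76.8 CPM for FL-NPM1c, 81.5, 78.6 and 97.0 for C-body null, 89.7, 95.9 and 77.6 for mCherry, and 63.5, 59.1 and 73.5 in NTC DMSO. Each dTAG-13 group lay just above the highest NTC DMSO library. TIMP1 rose with mCherry over NTC DMSO by 0.43 ± 0.11 on the log2 scale (edgeR adjusted p = 0.00861). It was 0.37 ± 0.11 with FL-NPM1c (adjusted p = 0.0178) and 0.39 ± 0.11 with C-body null (adjusted p = 0.0125). The FL-NPM1c call ended without FL-NPM1c replicate 1 or 2 (adjusted p = 0.0953 and 0.0639) and without NTC DMSO replicate 1 or 2 (0.0683 and 0.117), and the C-body null call without its replicate 3 (0.0696) and without NTC DMSO replicate 1 or 2 (0.0508 and 0.0632). In these cases the log2 fold change was between 0.27 and 0.37.

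TIMP2 (ENSG00000035862, chromosome 17, 78852977 to 78925387, minus strand), which besides inhibiting metalloproteases takes part in the activation of pro-MMP2, was the one gene of the 10 called lower against NTC DMSO, with C-body null. It was at 58.0, 54.4 and 52.9 CPM for FL-NPM1c, 48.8, 47.4 and 50.7 for C-body null, 53.7, 56.1 and 54.5 for mCherry, and 60.3, 58.4 and 62.1 in NTC DMSO. Every library with dTAG-13 lay below every NTC DMSO library, and C-body null lay below the other groups. C-body null minus NTC DMSO was -0.30 ± 0.07 on the log2 scale (edgeR adjusted p = 0.00523), a call that held under every alternative run. mCherry minus NTC DMSO was -0.14 ± 0.07 (adjusted p = 0.187), FL-NPM1c minus NTC DMSO -0.13 ± 0.07 (adjusted p = 0.192) and C-body null minus mCherry -0.16 ± 0.07 (adjusted p = 0.399). AC022966.1, on the opposite strand with 367 shared exon bases, had 17.7% of the counts of TIMP2 with FL-NPM1c, 17.7% with C-body null, 16.2% with mCherry and 16.3% in NTC DMSO, and the limit on strand holds here too.

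Levels per exon length (CPM per kilobase) allow a rough ordering of the genes by abundance. The length is that of all annotated exons of a gene merged, which may exceed the length of its transcripts. The order, and the size of the ratios given below, depend on this length. LGALS1 was highest in each group, at 272, 249, 269 and 255 with FL-NPM1c, C-body null and mCherry and in NTC DMSO, followed by TIMP1 at 54.8, 55.6, 57.0 and 42.4. FN1 came next with FL-NPM1c (39.6 ± 2.87), above CD44 (25.1 ± 0.713) and VCAN (23.9 ± 2.21), which lay within each other's spread. With C-body null FN1 (29.4 ± 2.91) and VCAN (27.5 ± 3.50) lay within each other's spread, as they did with mCherry (29.8 ± 3.41 and 27.4 ± 2.81). In NTC DMSO the order differed, with CD44 at 22.0, TIMP2 at 10.7, and FN1 and VCAN at 3.62 and 3.83, a pair within each other's spread. LGALS3, MMP9 and THBS1 lay at 1.29 to 4.01 in the groups with dTAG-13, and TGFBI at 0.368 to 0.576 there and 0.0720 in NTC DMSO. Together the 10 genes made up 1686 to 1860 CPM with FL-NPM1c, 1530 to 1657 with C-body null, 1565 to 1672 with mCherry and 729 to 787 in NTC DMSO. FN1 supplied 37.2% to 40.5% of that sum with FL-NPM1c, 29.7% to 33.4% with C-body null, 28.7% to 33.6% with mCherry and 7.90% to 8.56% in NTC DMSO.

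Ratios within a library, per exon length, set pairs of genes against each other and are given as a description. FN1 to VCAN was 1.66 ± 0.05 with FL-NPM1c (SD, n = 3), 1.08 ± 0.03 with C-body null, 1.09 ± 0.08 with mCherry and 0.951 ± 0.124 in NTC DMSO, and the FL-NPM1c libraries stood apart from the rest. MMP9 to TIMP1 was 0.0527 ± 0.0179, 0.0714 ± 0.0086 and 0.0549 ± 0.0045 with FL-NPM1c, C-body null and mCherry, against 0.0103 ± 0.0021 in NTC DMSO. TIMP1 to TIMP2 was 5.60, 6.39 and 5.86 in the same groups and 3.96 in NTC DMSO. LGALS1 to LGALS3 was 97.2, 67.0 and 71.8, against 161 in NTC DMSO, with mCherry replicate 2 alone at 98.0.

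**Figure D3:**
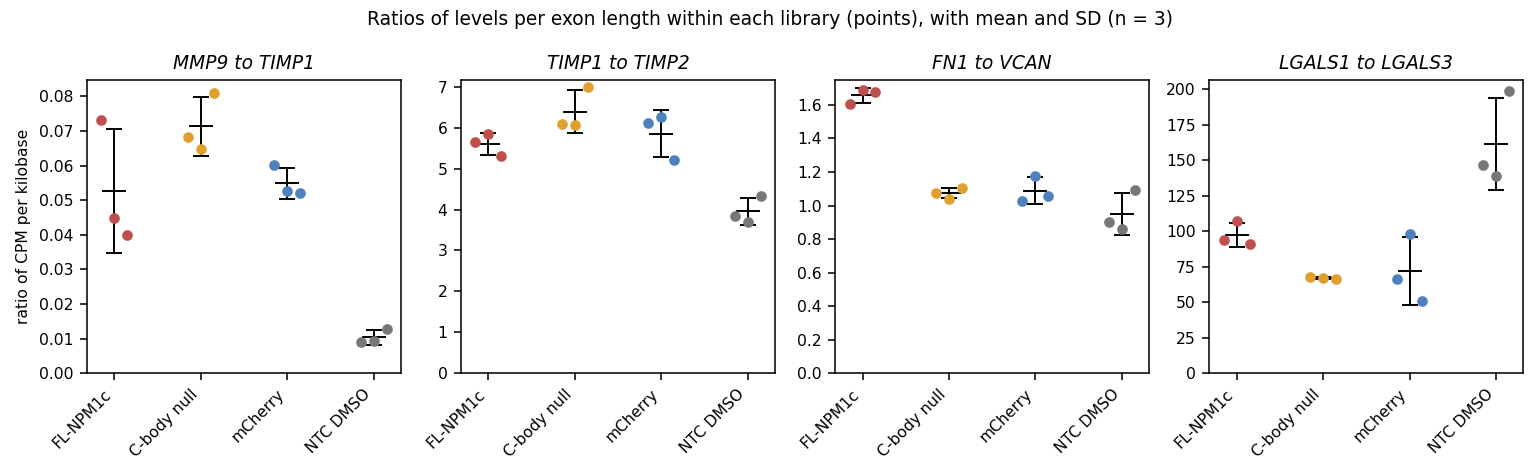
Ratios of levels per exon length (vertical axes from 0, CPM per kilobase over CPM per kilobase) in each library (points), with group mean and SD (n = 3). FN1 to VCAN is 1.61 to 1.69 with FL-NPM1c and 0.858 to 1.18 in the other 9 libraries, and MMP9 to TIMP1 is lowest in NTC DMSO.

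Other genes of the matrix were read from 7 lists, chosen with earlier results of these data known. Their counts with mCherry against NTC DMSO stand beside the 12.9% higher and 9.69% lower of all genes. The choice may itself have raised the list counts in any comparison, so they are a description only. Of 25 tested matrix proteases and inhibitors 13 were higher and 0 lower (median log2 fold change 0.36). They included MMP8, a collagenase of neutrophils (4.15 ± 0.37), the collagenase MMP1 (3.57 ± 0.78) and the plasminogen activator inhibitor SERPINB2 (2.76 ± 0.42). Each was at 2.46 CPM or less with mCherry, and they averaged 0.134, 0.0425 and 0.092 CPM in NTC DMSO. They passed the filter on low counts only through groups with dTAG-13, so only a higher call was open to them. Of 25 tested glycoproteins, proteoglycans and collagens 11 were higher and 1 lower (median 0.27). SRGN, which encodes the granule proteoglycan serglycin, rose to 1948 CPM with mCherry, against 1161 CPM in NTC DMSO (0.75 ± 0.08), and SPARC, a collagen-binding protein, fell (-0.69 ± 0.17). Of 22 receptors 10 were higher and 3 lower (median 0.28), among them the integrin subunits ITGB7 (2.71 ± 0.20) and ITGB8 (2.37 ± 0.21) and CD36 (1.82 ± 0.10), a thrombospondin receptor, at 360.2 CPM with mCherry and 102 CPM in NTC DMSO. ITGAM, the integrin subunit CD11b and one of the monocyte markers, was at 15.4 CPM with mCherry and 3.94 CPM in NTC DMSO (1.97 ± 0.14). For these named genes the adjusted p was 0.00671 or lower (edgeR), and every call held under every alternative run.

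Fewer genes of the other lists were called between mCherry and NTC DMSO. Of 21 matrix-modifying enzymes 5 were higher and 3 lower (median -0.04). The 5 included CHST15, a sulfotransferase for chondroitin sulfate (3.79 ± 0.27), at 3.78 CPM with mCherry and 0.271 CPM in NTC DMSO. Also higher were TGM2, which cross-links matrix proteins (2.45 ± 0.24), SULF2, which removes sulfate from heparan sulfate (2.37 ± 0.16), and HPSE, heparanase (0.88 ± 0.09). Of 8 other galectins and ligands LGALS9 alone was called, 1.35 ± 0.13 higher. Of 11 hyaluronan genes 3 were higher, among them the scavenger receptor STAB1 (0.93 ± 0.18) and CEMIP2 (0.48 ± 0.12), and 1 was lower, the hyaluronan receptor HMMR (-0.44 ± 0.11). Of 20 genes of transforming growth factor beta signalling 1 was higher, the receptor TGFBR2 (0.52 ± 0.08), and 3 were lower, among them the decoy receptor BAMBI (-0.81 ± 0.10) and the inhibitor SMAD6 (-0.54 ± 0.10). The genes named here had an edgeR adjusted p of 0.00754 or lower.

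With FL-NPM1c against mCherry (background 7.58% higher and 7.95% lower) 5 of the 7 lists held both higher and lower genes and 2 held higher genes only. Of the 25 proteases and inhibitors 1 was higher and 6 lower, among them PLAU, urokinase (-0.62 ± 0.08), the versican-cleaving protease ADAMTS5 (-0.67 ± 0.11) and the cysteine protease CTSS (-0.53 ± 0.09). Of the 8 galectins and ligands 1 was higher, the galectin-binding glycoprotein LGALS3BP (1.09 ± 0.17), and 4 were lower, among them LGALS9 (-0.75 ± 0.13), which like LGALS3 lay below mCherry, and PTPRC, the leukocyte surface protein CD45 (-0.39 ± 0.09). Of the 22 receptors 2 were higher and 4 lower. ITGAM had the largest change, at 3.81 CPM with FL-NPM1c and 15.4 CPM with mCherry (-2.02 ± 0.14). The proteoglycan SDC1 was at 5.98 CPM with FL-NPM1c and 1.90 CPM with mCherry, while CD36 (-0.72 ± 0.10) and ITGA1 (-0.80 ± 0.11), a collagen receptor subunit, were lower. Of 25 glycoproteins and collagens 4 were higher, among them fibrillin 1, FBN1 (1.11 ± 0.21), and 4 lower, among them THBS4 (-0.56 ± 0.11). The named genes had an edgeR adjusted p of 0.00677 or lower.

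In the same comparison, of 21 matrix-modifying enzymes 5 were higher and 2 lower (median 0.18). The higher ones included SERPINH1, a chaperone for collagen (105 CPM with FL-NPM1c and 68.4 CPM with mCherry, 0.62 ± 0.10), and the prolyl hydroxylase P4HA2 (0.63 ± 0.11). Of 20 genes of transforming growth factor beta signalling 4 were higher and 0 lower (median 0.14), among them the co-receptor ENG (0.66 ± 0.13, adjusted p = 0.00378). Of 11 hyaluronan genes 2 were higher, among them CEMIP, which takes part in hyaluronan breakdown, at 23.5 CPM with FL-NPM1c and 3.89 CPM with mCherry. With C-body null against mCherry (background 0.216% higher and 0.378% lower) the 7 lists held 1 higher and 4 lower gene in all, and TIMP3, a matrix-bound metalloprotease inhibitor, fell to 95.3 CPM with C-body null, against 133 CPM with mCherry (-0.48 ± 0.07, adjusted p = 0.00379).

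FL-NPM1c against C-body null (background 4.82% higher and 4.86% lower) called 4 receptors higher and 5 lower. ITGAM was at 3.81 CPM with FL-NPM1c and 14.0 CPM with C-body null (-1.88 ± 0.14), SDC1 at 5.98 CPM and 1.69 CPM in the same groups (1.82 ± 0.14), and CD36 at 219 CPM and 357 CPM (-0.70 ± 0.10). Of the proteases and inhibitors 3 were higher, among them TIMP3 (0.45 ± 0.07), and 2 lower, among them PLAU (-0.45 ± 0.08). Of the galectins and ligands LGALS3BP was higher (1.27 ± 0.18) and 2 were lower, among them LGALS9 (-0.81 ± 0.13). Of the glycoproteins and collagens 3 were higher, among them FBN1 (1.04 ± 0.21), and 2 lower, among them THBS4 (-0.93 ± 0.11). For transforming growth factor beta signalling 5 were higher, among them the receptor TGFBR1 (0.62 ± 0.10), and 0 lower. The matrix-modifying enzymes had 6 higher and 3 lower, and SULF2 was among the lower ones (-0.67 ± 0.14), and CEMIP alone was called of the hyaluronan genes (2.68 ± 0.14). These named genes had an edgeR adjusted p of 0.00579 or lower. The 7 lists held 25, 25, 22, 21, 20, 11 and 8 tested genes. Over all 7, FL-NPM1c against NTC DMSO called 47 higher and 21 lower (background 14.6% higher and 13.3% lower). C-body null against NTC DMSO called 41 higher and 18 lower (background 14.1% higher and 12.4% lower).

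**Figure D4:**
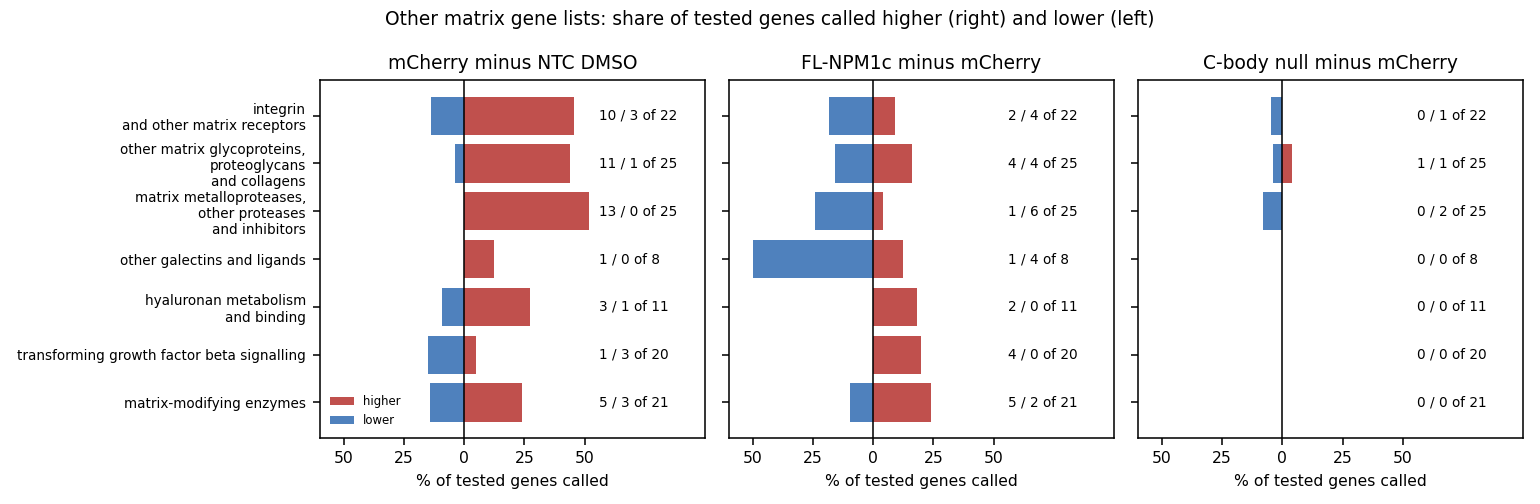
Share of the tested genes of each of 7 other matrix lists (vertical axis) called higher (right) or lower (left) in 3 comparisons, in percent (horizontal axis), with the counts of higher and lower genes printed beside each bar. The lists were chosen with earlier results of these data known. Proteases and inhibitors have 13 higher and 0 lower of 25 with mCherry against NTC DMSO. C-body null against mCherry has 0 or few calls in each list.

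The genes nearest in pattern were sought by the root mean square difference of log2 CPM over the 12 libraries, each gene centred on its NTC DMSO mean, among 17252 genes. IGFBP3, a binding protein for insulin-like growth factors, was among the nearest to FN1 (0.266 on the log2 scale). VCAN-AS1, which overlaps VCAN and may share reads with it, was nearest to VCAN (0.129). SECTM1 was nearest to THBS1 (0.263), TYMP, thymidine phosphorylase, to TGFBI (0.228) and the leukocyte receptor LILRB2 to MMP9 (0.234). For LGALS3 the nearest were MIR223HG (0.104), the host transcript of a myeloid microRNA, and FCER1G (0.126), an Fc receptor subunit. CD44, LGALS1, TIMP1 and TIMP2 had ZNF136, ZFPL1, SERTAD1 and STAC3 as their nearest genes, at differences of 0.0729 or less.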

How the data were processed

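RNA of 12 libraries was made into stranded libraries with a TruSeq kit (protocols in the labels). The authors deposited whole-number gene counts, keyed by Ensembl ID. STAR, featureCounts and DESeq2, with build hg38, are named in the submitters' processing notes. How strand and reads with several positions were treated, and the annotation release, is not given in the sources used here. Of 78936 lines 6 were broken and 2 genes were left out. Symbols came from a gene name table (61479 IDs) and GENCODE 29 (54), and 17397 IDs had none. Coordinates and exon lengths are of GENCODE 29. Columns were matched to samples by library number and groups follow the titles; the treatment label of NTC DMSO reads dTAG.

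Counts were fitted with edgeR 4.0.16 (R 4.3.3; filterByExpr, which removed 0.0795% of counts; TMM factors 0.975 to 1.02; 1 quasi-likelihood fit of 12 libraries, robust; common biological coefficient of variation 0.0975). Contrasts were called at a Benjamini-Hochberg adjusted p under 0.05 over 24064 genes. Standard errors come from the F statistic, and 95% intervals are not adjusted for the number of genes. Library pairs within groups differed beyond sampling noise. The test was also run on simulated counts, drawn independently for each gene and library. Such counts cannot carry differences that many genes of a library share, and no conclusion is drawn from them here. The alternatives tried were RLE factors, scaling by library totals, DESeq2 1.42.0, a filter of 1 count in all, a filter of 50 counts in 3 libraries, the replicate number as a block, only the 2 groups, and each library left out; leaving out mCherry replicate 2 and NTC DMSO replicate 3 together was chosen after seeing the data. Of 7 lists (170 entries), up to 4 genes a list and comparison with the largest called change could be named; the text gives examples of these whose call held under every alternative, from the comparisons other than those of the constructs with NTC DMSO. Motifs were matched to RefSeq promoters. The 10 genes and the lists were chosen with earlier results of these data known. A result on the genes nearest in pattern to FN1 is not reported here.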

Additional observations from a re-analysis of the deposited data

How the results depend on the processing

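Under the alternatives run, none of the 10 genes reversed a called direction. The number of the 10 genes called stayed within 1.5 times its value against NTC DMSO with each group. For FL-NPM1c against mCherry (3 called) it was 1 to 3 with each library left out. For C-body null against mCherry (0 called) it was 1 with DESeq2, 1 with no low-count filter, 0 to 1 with each library left out and 2 without mCherry replicate 2 and NTC DMSO replicate 3 together, an alternative chosen after seeing the data in which CD44 also passed (-0.17, adjusted p = 0.0436). In that alternative THBS1 was no longer called with FL-NPM1c against mCherry (0.65, adjusted p = 0.0835). For FL-NPM1c against C-body null (1 called) it was 2 with DESeq2, 4 with no low-count filter, 3 with only the 2 groups and 0 to 2 with each library left out. The cause was not tested. Replicate numbers did not pair the libraries (residual correlations of 18 same-number pairs -0.307 to 0.159). NTC DMSO replicate 3 and mCherry replicate 2, which lay apart from their groups, had a residual correlation of 0.404. With the replicate block the count of the 10 genes stayed at 7 for mCherry against NTC DMSO and 3 for FL-NPM1c against mCherry. It stayed at 0 for C-body null against mCherry and 1 for FL-NPM1c against C-body null. Against NTC DMSO it stayed at 7 for FL-NPM1c and 8 for C-body null.

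Counts over all genes moved more. For C-body null against mCherry 143 genes were called, 362 with DESeq2, 368 with no filter, 86 with the replicate block, 63 with only the 2 groups, 60 to 1399 with each library left out and 3957 without the 2 libraries; 36.4% of its calls were higher, against 55.0% with DESeq2, 47.3% with no filter and 47.6% with only the 2 groups. FL-NPM1c against mCherry (3735) ranged from 1621 to 6834 with each library left out, with 8369 without the 2. FL-NPM1c against C-body null (2329) had 4410 with only the 2 groups and 1365 to 2148 with each library left out, FL-NPM1c against NTC DMSO (6712) 4190 to 7807, and mCherry against NTC DMSO (5429) 3402 with only the 2 groups. Depth limits TGFBI and MMP9 in NTC DMSO, at 17 to 54 counts a library.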
